A study of Mus musculus with 2 samples.

Results

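The let-7 family of microRNA (miRNA) genes, with its member miR-98, was followed in small RNA libraries from the neural tube of newborn mice. It was taken as 12 of the 1973 miRNA genes in the count tables. 10 were chosen by gene symbol and read on their own strand. They are Mirlet7a-1, Mirlet7a-2, Mirlet7b, Mirlet7c-1, Mirlet7c-2, Mirlet7d, Mirlet7f-2, Mirlet7g, Mirlet7i and Mir98. The other 2, Mirlet7e and Mirlet7f-1, are not analysed here as rows of their own. They were read from the strand opposite to Gm25927 and Gm24111, which lie over them, and their values are those of reads at these places on the let-7 strand.

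The samples formed 1 group of 2 libraries, 1 neural tube each from littermates called pup 2 and pup 1, of mouse strain B6NCrl at postnatal day 0, with no treatment or mutation named and the sex not collected. RNA shorter than 30 bases was sequenced. With 1 group there was no comparison between conditions, so the values describe the level of each gene, its order in the family and the difference between the pups. Nothing in the labels separates what differs between the animals from what differs between the libraries.

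let-7 was found in the worm Caenorhabditis elegans as a gene that sets the timing of development, and its mature sequence is much the same in worms and mammals. In mammals the family generally rises as tissues mature. Early in development the RNA-binding proteins LIN28A and LIN28B hold back the processing of many let-7 precursors, and mature let-7 in turn represses Lin28 messages, Hmga2 and other growth genes. A miRNA gene is first copied as a long transcript, from which a hairpin is cut. From the hairpin comes the mature strand of about the length of the sequences below, and its bases 2 to 8, the seed, do most of the choosing of target messages.

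The 12 genes make 9 mature let-7 sequences, all of 22 bases, and which of these are made by 1 gene and which by 2 runs through the values below. They are shown from RefSeq (build GRCm38.p6, the assembly also called mm10), 5′ to 3′, with the seed in capitals. The seed is the same in all 9.
let-7a: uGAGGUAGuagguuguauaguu
let-7b: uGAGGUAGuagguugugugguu
let-7c: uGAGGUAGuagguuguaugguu
let-7d: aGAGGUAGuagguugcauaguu
let-7e: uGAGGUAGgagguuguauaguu
let-7f: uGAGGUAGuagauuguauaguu
let-7g: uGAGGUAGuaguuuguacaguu
let-7i: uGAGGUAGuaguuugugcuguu
miR-98: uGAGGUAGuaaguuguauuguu

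Counted from base 1 at the 5′ end and relative to let-7a, let-7c differs by A19G, let-7e by U9G and let-7f by G12A. let-7b differs by A17G and A19G, let-7d by U1A and U16C, let-7g by G12U and U18C, and miR-98 by G11A and A19U. let-7i differs at 4 bases, G12U, A17G, U18C and A19U. let-7a, let-7b, let-7c, let-7e and let-7f thus each lie 1 base from another family member, and let-7d, let-7g, let-7i and miR-98 lie 2 bases from the nearest. The seed-bearing arm lies at the 5′ side of each hairpin and is called the let-7 arm here.

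6 genes each make a let-7 arm that no other member makes, namely Mirlet7b, Mirlet7d, Mirlet7e, Mirlet7g, Mirlet7i and Mir98. The other 6 fall in pairs with an identical arm, Mirlet7a-1 with Mirlet7a-2, Mirlet7c-1 with Mirlet7c-2, and Mirlet7f-1 with Mirlet7f-2. The pairs are shown with the arm in capitals and 6 bases of the precursor on either side, because only reads that reach past the arm, or come from the rest of the hairpin, can tell the partners apart.
Mirlet7a-1: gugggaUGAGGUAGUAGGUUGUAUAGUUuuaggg
Mirlet7a-2: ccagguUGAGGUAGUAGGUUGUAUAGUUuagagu
Mirlet7c-1: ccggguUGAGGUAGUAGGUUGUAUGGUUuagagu
Mirlet7c-2: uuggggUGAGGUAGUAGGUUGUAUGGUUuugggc
Mirlet7f-1: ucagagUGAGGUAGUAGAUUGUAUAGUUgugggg
Mirlet7f-2: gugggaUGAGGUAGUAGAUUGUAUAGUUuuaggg

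In mm10, the build of the count tables, these stretches lie at chr13:48538233-48538266 (minus strand, Mirlet7a-1), chr9:41536726-41536759 (plus, Mirlet7a-2), chr16:77599666-77599699 (plus, Mirlet7c-1), chr15:85706610-85706643 (plus, Mirlet7c-2), chr13:48537883-48537916 (minus, Mirlet7f-1) and chrX:151912347-151912380 (plus, Mirlet7f-2). The longest stretch that the Mirlet7a precursors share is 23 bases, as it is for the Mirlet7c precursors, and for the Mirlet7f precursors it is the 22 bases of the arm itself. Mirlet7a-1 and Mirlet7c-2 share a still longer stretch of 26 bases on the other side of the hairpin, where their 3p arms are identical. The Mirlet7f partners differ in that arm, as the 3p sequences from RefSeq show.
let-7a-1-3p: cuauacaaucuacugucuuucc
let-7c-2-3p: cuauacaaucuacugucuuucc
let-7f-1-3p: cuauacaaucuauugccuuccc
let-7f-2-3p: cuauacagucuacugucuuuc

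The tables give uniquely placed reads per precursor gene and do not tell the arms of a hairpin apart. Own-strand totals over all miRNA genes were 3660693 counts in pup 2 and 3216453 counts in pup 1, so 1 count equals 0.273 CPM (counts scaled to a total of 1000000) for pup 2 and 0.311 CPM for pup 1. Reads that fitted several places numbered 2555735 in pup 2 and 2268506 in pup 1, 35.5% ± 0.15 of all reads (SD, n = 2), and were counted to no gene. They were 6.86 and 7.70 times the reads counted to the let-7 family in pup 2 and pup 1. These are all such reads of each library, and how many came from let-7 genes is not known. Of markers of the labelled tissue, neuronal Mir137 stood at 16076 CPM ± 1484 (SD, n = 2), and 6 of the 10 neuronal genes listed reached a mean of 10 CPM. All 4 below it were Mir124a and Mir9 genes, whose mature sequences come from several genes. The same holds for Mir128-1, Mir9-3, Mir218-2 and Mir218-1, which lay above it at means of 3126, 459, 276 and 36.5 CPM. Why some of these genes were low was not tested. Genes of other tissues were present too. Mir126a of endothelium stood at 26923 CPM ± 1294, and the mesenchymal list summed to 11371 CPM in pup 2 and 10663 CPM in pup 1, with 5 of 6 genes at a mean of 10 CPM or more. The blood list, of which 3 of 4 genes were measured, summed to 374 and 277 CPM, and that of skeletal muscle, with Mir1a-1 at 0 in both pups, to 105 and 70.6 CPM in pup 2 and pup 1. Their part in the let-7 levels was not tested, and in whole tissue fewer cells of a type and less RNA per cell cannot be told apart.

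The family was abundant in the newborn neural tube, and nearly all of its uniquely placed counts came from genes whose let-7 arm is their own. The 12 genes held 372327 counts in pup 2 and 294614 counts in pup 1. These equal 10.2% of the own-strand total in pup 2 and 9.16% in pup 1 (mean 9.67% ± 0.715, SD, n = 2). That total lacks the counts at Mirlet7e and Mirlet7f-1, so exact 95% binomial intervals are given for the other 10 members. They held 9.75% in pup 2 (9.72 to 9.78%) and 8.75% in pup 1 (8.72 to 8.78%). These intervals hold counting error alone because no molecular identifiers are named, and the pups lay further apart than that. Mirlet7g and Mirlet7i together held 74.3% of the family's counts in pup 2 and 73.9% in pup 1. All 12 members had at least 10 counts in both pups, against 17.9% of all miRNA genes, and 7 members reached a mean of 1000 CPM, against 4.87% of all miRNA genes. Mirlet7e and Mirlet7f-1 were read on the opposite strand because counts were known there, so their detection was given in advance. Genes outside the family were read on their own strand only.

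Mirlet7g led the family with 49417 CPM in pup 2 and 42684 CPM in pup 1 (mean 46050 ± 4761, SD, n = 2). It ranked 4 among all 1973 genes in each pup. The gene lies in an intron of Wdr82, which codes for a subunit of a histone methyltransferase complex, on chromosome 9 (106178840 to 106178927, plus strand). Its level was next below that of Mir99a (105955 CPM ± 5461), 2.30-fold away, and next above that of Mir487b (36092 CPM ± 1520), 1.28-fold away.

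Mirlet7i followed with 26170 CPM in pup 2 and 25018 CPM in pup 1 (25594 ± 815). It ranked 7 in pup 2 and 8 in pup 1. It lies on chromosome 10 (122985640 to 122985724, minus strand), in an exon of the pseudogene transcript D630033A02Rik. Its level was next below that of Mir335 (26373 CPM ± 435), 1.03-fold away, and next above that of Mir30e (17485 CPM ± 2254), 1.46-fold away. Likeness here is of level only, since 2 libraries give no pattern across samples.

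Mirlet7b had 8593 CPM in pup 2 and 9278 CPM in pup 1 (8935 ± 484). By its mean it ranked 19. It was lower in pup 2 than in pup 1, unlike the other 11 members. By mean level Mir23b (9022 CPM ± 1972) was next above Mirlet7b, 1.01-fold away, and Mir322 (8465 CPM ± 1318) next below, 1.06-fold away. In single pups this order did not hold, with Mir23b at 7628 CPM in pup 1 and Mir322 at 9397 CPM in pup 2.

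Mirlet7d had 6800 CPM in pup 2 and 5161 CPM in pup 1 (5981 ± 1159). This was the widest fold between the pups among the 6 genes with an arm of their own. The place of Mirlet7e, read opposite to Gm25927, had 15220 counts in pup 2 and 12998 counts in pup 1, or 4158 and 4041 CPM (4099 ± 82.4), with the smallest spread of those 6 relative to its mean. Mir98 had 2766 CPM in pup 2 and 2455 CPM in pup 1 (2610 ± 220). These 3 genes ranked 28, 40 and 54 by their means.

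The 6 genes that share an arm all lay below these. Mirlet7f-2 was the highest of them with 1998 CPM in pup 2 and 1746 CPM in pup 1 (1872 ± 178, rank 68). Mirlet7c-2 had 865 CPM in pup 2 and 540.0 CPM in pup 1 (703 ± 230). Mirlet7c-1 had 429 and 355 CPM in pup 2 and pup 1 (392 ± 51.8).

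Mirlet7a-1 had 232 CPM in pup 2 and 130.3 CPM in pup 1 (181 ± 71.7). Mirlet7a-2 had 187 and 112 CPM in pup 2 and pup 1 (149 ± 53.0). The place of Mirlet7f-1, read opposite to Gm24111, was lowest with 350 counts in pup 2 and 245 counts in pup 1, or 95.6 and 76.2 CPM (85.9 ± 13.7, rank 217). By mature form, uniquely placed reads from both partners summed to 2094 CPM in pup 2 and 1822 CPM in pup 1 for let-7f, 1294 and 895 CPM for let-7c, and 418 and 242 CPM for let-7a.

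**Figure D1:**
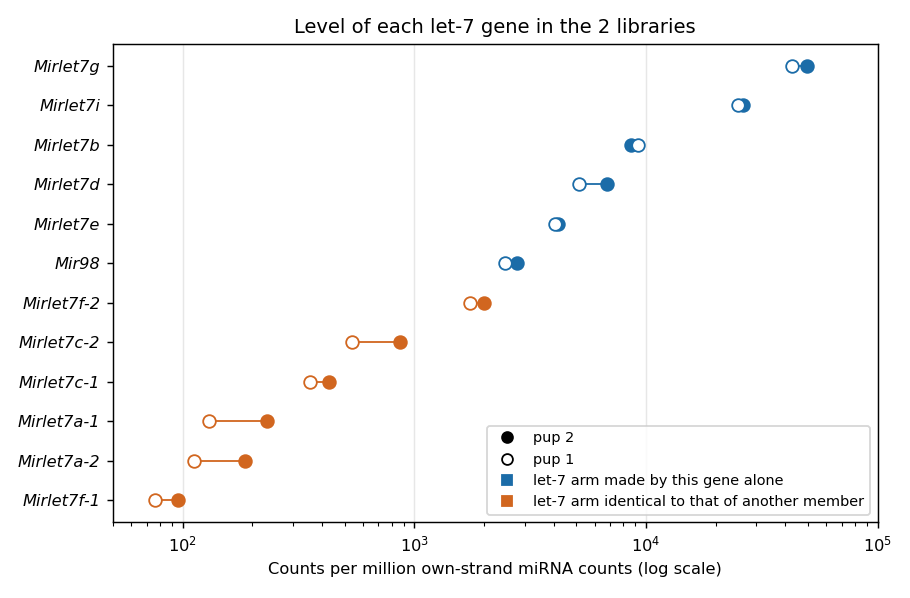
Level of each of the 12 let-7 genes in CPM (log axis), filled circles for pup 2 and open circles for pup 1, coloured by whether the let-7 arm is made by that gene alone. The 6 genes with an arm of their own lie above the 6 that share one, from Mirlet7g at 49417 and 42684 CPM to Mirlet7f-1 at 95.6 and 76.2 CPM.

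The 2 classes of members did not overlap in uniquely placed counts in either pup. A read of the arm alone fits both partners where the arm is shared, and such reads were not counted. The classes therefore differ in what could be counted, and their split is given for the family alone. The lowest gene with an arm of its own, Mir98, had 2766 CPM in pup 2 and 2455 CPM in pup 1. The highest gene that shares an arm, Mirlet7f-2, had 1998 CPM in pup 2 and 1746 CPM in pup 1. The class medians of the mean levels were 7458 CPM for arms made by 1 gene and 286 CPM for shared arms. Genes with an arm of their own held 96.3% of the family's counts in pup 2 and 96.8% in pup 1 (96.5% ± 0.361, SD, n = 2). Since ambiguous placements went uncounted, the values of the shared arms are not levels of let-7a, let-7c or let-7f. How many uncounted reads belong to these 3 was not tested. By distance to the nearest other arm, the shared arms all lie 1 base away, as do those of Mirlet7b and Mirlet7e, at 8935 and 4099 CPM. The arms of Mirlet7d, Mirlet7g, Mirlet7i and Mir98 lie 2 bases from the nearest. Whether this distance bears on the counts was not tested.

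**Figure D2:**
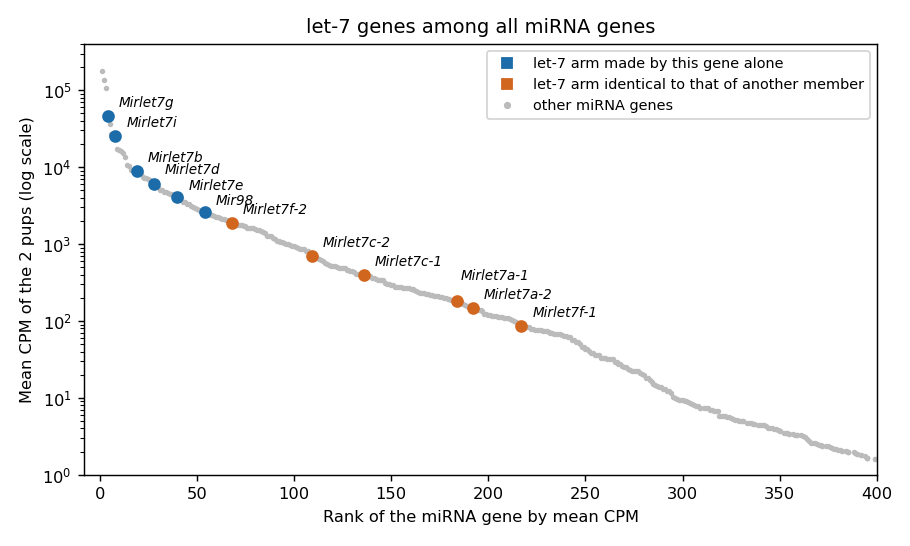
Mean CPM of the 2 pups (log axis) against rank for miRNA genes up to rank 400, with the let-7 genes marked by colour. Mirlet7g stands at rank 4 and Mirlet7f-1 at rank 217, and the genes with an arm of their own take the 6 highest places of the family.

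The order of the 12 levels was the same in both pups. Of the 11 steps between successive members, 10 exceeded the 95% limit given by the SD of log2(CPM + 1) between pups, pooled over genes of like abundance, and 1 did not. The exception was Mirlet7a-1 against Mirlet7a-2, which differed 1.24-fold in pup 2 and 1.17-fold in pup 1. With the SD pooled over the 12 members alone 8 steps exceeded the limit, and Mirlet7d over Mirlet7e and Mir98 over Mirlet7f-2 no longer did. Mirlet7g lay above Mirlet7i by 1.89-fold in pup 2 and 1.71-fold in pup 1. The largest step among genes with an arm of their own was Mirlet7i over Mirlet7b, 3.05-fold in pup 2 and 2.70-fold in pup 1. The step between the classes, Mir98 over Mirlet7f-2, was 1.38-fold in pup 2 and 1.41-fold in pup 1. These levels are counts per gene and were not divided by length; per base of precursor (83 to 108 bases) the order of all 12 mean levels was the same. The pooled SD rests on the pups' differences, so an unequal capture of genes that is common to both libraries would not show in it.

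Most members lie close to another miRNA gene on the same strand, and such neighbours are often cut from 1 transcript. On chromosome 13 (minus strand) Mirlet7a-1 (48538179 to 48538272), Mirlet7f-1 (48537829 to 48537917) and Mirlet7d (48536012 to 48536114) all lie in exons of the noncoding gene 6720427I07Rik. Mirlet7d stood 29.4-fold above Mirlet7a-1 in pup 2 and 39.6-fold in pup 1. It stood 71.1-fold above Mirlet7f-1 in pup 2 and 67.8-fold in pup 1. Mirlet7d is the 1 gene of this cluster whose arm no other member makes.

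On chromosome 15 (plus strand) Mirlet7c-2 (85706603 to 85706697) and Mirlet7b (85707319 to 85707403) lie 621 bases apart in exons of the noncoding gene Lncppara. Mirlet7b stood 9.93-fold above Mirlet7c-2 in pup 2 and 17.2-fold in pup 1. The ratio was thus lower in pup 2, where Mirlet7c-2 was higher and Mirlet7b lower than in pup 1. On chromosome X (plus strand) Mirlet7f-2 (151912346 to 151912428) and Mir98 (151913214 to 151913321) lie 785 bases apart in an intron of Huwe1, a ubiquitin ligase gene. Mir98 stood 1.38-fold above Mirlet7f-2 in pup 2 and 1.41-fold in pup 1, so this pair had nearly the same ratio in both animals.

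Mirlet7f-2 and Mirlet7f-1, which make the same let-7 arm, did not stand at the same level. Mirlet7f-2 had 7314 counts in pup 2 and 5615 counts in pup 1, and the place of Mirlet7f-1 had 350 and 245 counts. Their precursors differ outside the arm, in the flanks and the 3p sequences shown above. Which parts of the hairpins the unique reads came from is not given by counts per gene.

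The other 3 clusters pair a let-7 gene with genes of the miR-99 and miR-125 families, an arrangement that vertebrates share. On chromosome 17 (plus strand) Mirlet7e (17830352 to 17830444), in an intron of Spaca6, lies 94 bases after Mir99b and 367 bases before Mir125a. Its place stood at 0.423 times the level of Mir99b (9821 CPM in pup 2 and 8769 CPM in pup 1) in pup 2 and 0.461 times in pup 1. Relative to Mir125a (4683 CPM in pup 2 and 4225 CPM in pup 1) it stood at 0.888 and 0.957 times in pup 2 and pup 1. The 3 genes of this cluster were thus within 2.36-fold of each other in pup 2 and 2.17-fold in pup 1.

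On chromosome 16 (plus strand) Mirlet7c-1 (77599657 to 77599750), within an intron of noncoding Mir99ahg, lies 656 bases after Mir99a. Mir99a had 102094 CPM in pup 2, which is 238 times Mirlet7c-1, and 109816 CPM in pup 1, which is 309 times. On chromosome 9 (plus strand) Mirlet7a-2 (41536716 to 41536811), in introns of the noncoding genes 3110039I08Rik and Gm49317, lies 5211 bases after Mir100. Mir100 had 16393 CPM in pup 2, which is 87.9 times Mirlet7a-2, and 17175 CPM in pup 1, which is 154 times. In both of these clusters the let-7 gene is one whose arm another member also makes. The miR-125 genes Mir125b-2 and Mir125b-1 were not found within the distance searched for neighbours, and a wider distance was not tested. Mir125b-2 had 1695 CPM in pup 2 and 1879 CPM in pup 1. Mir125b-1 had 1042 CPM in pup 2 and 984 CPM in pup 1. Both thus also lay far below Mir99a and Mir100, though above Mirlet7c-1 and Mirlet7a-2.

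**Figure D3:**
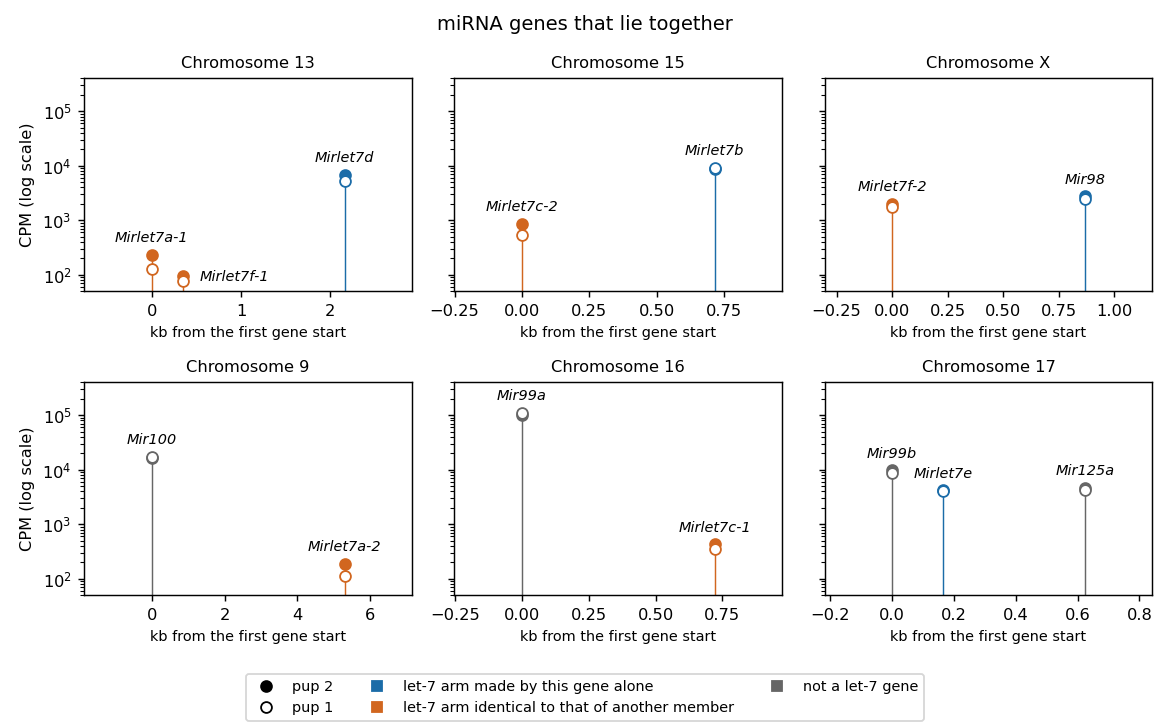
CPM (log axis) of miRNA genes that lie within 10 kb of each other on the same strand, against distance in kb from the start of the first gene, with filled circles for pup 2 and open circles for pup 1. Mirlet7d and Mirlet7b stand well above their neighbours with a shared arm, Mirlet7c-1 and Mirlet7a-2 stand far below Mir99a and Mir100, and Mirlet7e stands near Mir99b and Mir125a.

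Reads at the members came from 1 strand. The 10 members read on their own strand had 0 counts on the opposite strand in pup 2, and in pup 1 only Mirlet7b and Mir98 had any, with 1 count each. At Gm25927 and Gm24111 the reverse held, with 0 counts on the rows' own strand in both pups. The reverse complement of each of these annotated rows holds the whole RefSeq hairpin of Mirlet7e or Mirlet7f-1, and neither row holds the let-7 arm on its own strand. Without these 2 places the family's share was 9.75% in pup 2 and 8.75% in pup 1.

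Few counts fell in other genes that carry the let-7 name or seed. RefSeq lists 2 further mouse miRNAs with the same seed, let-7k and miR-1961. Mir7k, the gene of let-7k, had 1 count in pup 2 and 2 counts in pup 1, and Mir1961 had 0 in both, which allows up to 0.820 CPM in pup 2 and 0.933 CPM in pup 1. Mir7j, the gene of let-7j, had 119 counts in pup 2 and 99 counts in pup 1 (31.6 CPM ± 1.22). It carries the name but not the seed, as the sequences show with bases 2 to 8 in capitals.
let-7j: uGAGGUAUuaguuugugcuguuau
let-7k: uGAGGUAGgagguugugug
miR-1961: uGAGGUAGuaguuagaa

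Between the littermates, let-7 genes mostly took a larger share of the counts in pup 2. By an exact two-sided binomial test on library totals with Benjamini-Hochberg adjustment over 415 tested genes, 11 of the 12 members were higher in pup 2 (10 with TMM scaling or DESeq2 size factors, under which Mirlet7e was not called) and 1, Mirlet7b, was lower. Of all tested genes 41.4% were called, 26.0% higher and 15.4% lower in pup 2. Members have many counts, and among the 218 genes with at least as many as the lowest member the called share was 65.1%, with 40.8% higher and 24.3% lower. The test sets 1 library against 1 library with counting error as its only error and no replicate check, so it does not say that the animals differ beyond the variation between libraries. Markers of cell types differed between the pups too. The neuronal list summed to 23322 CPM in pup 2 and 20332 CPM in pup 1, of which Mir137 held 17125 and 15026 CPM. The sums for mesenchyme, blood and skeletal muscle were also higher in pup 2 (11371 against 10663 CPM, 374 against 277 CPM, and 105 against 70.6 CPM in pup 1). Not every listed gene followed its sum. Mesenchymal Mir145a (193 CPM in pup 2, 210 CPM in pup 1) and blood Mir144 (28.4 CPM in pup 2, 35.4 CPM in pup 1) were lower in pup 2. Neither Mir145a nor Mir144 was called by the exact binomial test. Endothelial Mir126a (26007 CPM in pup 2, 27838 CPM in pup 1) and hepatocyte Mir122 (64.2 CPM in pup 2, 104 CPM in pup 1) were lower in pup 2. Their part in the difference of the let-7 genes was not tested.

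The sizes differed widely within the family. The median log2 ratio of pup 2 over pup 1 was 0.24 over the 12 members and 0.04 over all 415 tested genes. At the upper end, Mirlet7a-1 had 848 counts in pup 2 and 419 counts in pup 1, a log2 ratio of 0.83 with an exact 95% interval of 0.66 to 1.00. Mirlet7a-2 had 683 and 359 counts in pup 2 and pup 1, a log2 ratio of 0.74 (interval 0.55 to 0.93). Mirlet7c-2 had 3168 and 1737 counts in pup 2 and pup 1, a log2 ratio of 0.68 (interval 0.60 to 0.77). These 3 were the only members beyond 1.5-fold, a size that 7.71% of the tested genes passed together with the test.

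Among genes with an arm of their own the ratios were smaller than those of Mirlet7a-1, Mirlet7a-2 and Mirlet7c-2. The ratio of Mirlet7d was still above those of the other genes with a shared arm. Mirlet7d had 24892 counts in pup 2 and 16601 counts in pup 1, a log2 ratio of 0.40 (interval 0.37 to 0.43). Mirlet7g, with 180900 and 137291 counts in pup 2 and pup 1, had a log2 ratio of 0.21 and accounted for 66.6% of the family's difference in CPM. Mirlet7i had a log2 ratio of 0.06 and Mirlet7e one of 0.04. The call of Mirlet7e (adjusted p = 0.043 in the exact binomial test) was lost with TMM scaling, with DESeq2 size factors, without Mir10b in the totals and with no count minimum, and its log2 ratio with DESeq2 size factors was -0.00031. Mirlet7b, with 31457 counts in pup 2 and 29841 counts in pup 1, had a log2 ratio of -0.11 (interval -0.13 to -0.09).

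The remaining members lay between these. Mirlet7f-1 had a log2 ratio of 0.33 (interval 0.09 to 0.57), Mirlet7c-1 one of 0.27, Mirlet7f-2 one of 0.19 and Mir98 one of 0.17. The summed counts of the 6 genes with a shared arm had a log2 ratio of 0.36 (interval 0.33 to 0.40), and those of the 6 other genes 0.14 (interval 0.14 to 0.15). The family as a whole had a log2 ratio of 0.15 (interval 0.14 to 0.16), or 0.10 without Mirlet7g. These intervals hold counting error only, and the difference between the classes was not tested.

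Neighbours did not all move alike. In the chromosome 13 cluster the log2 ratios were 0.83 (Mirlet7a-1), 0.33 (Mirlet7f-1) and 0.40 (Mirlet7d). On chromosome 15 they were 0.68 (Mirlet7c-2) and -0.11 (Mirlet7b), of opposite sign. On chromosome X they were 0.19 (Mirlet7f-2) and 0.17 (Mir98). On chromosomes 16 and 9 the let-7 gene was higher in pup 2 and its partner lower, with 0.27 for Mirlet7c-1 and -0.11 for Mir99a, and with 0.74 for Mirlet7a-2 and -0.07 for Mir100. On chromosome 17 the log2 ratios were 0.04 (Mirlet7e), 0.16 (Mir99b) and 0.15 (Mir125a).

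**Figure D4:**
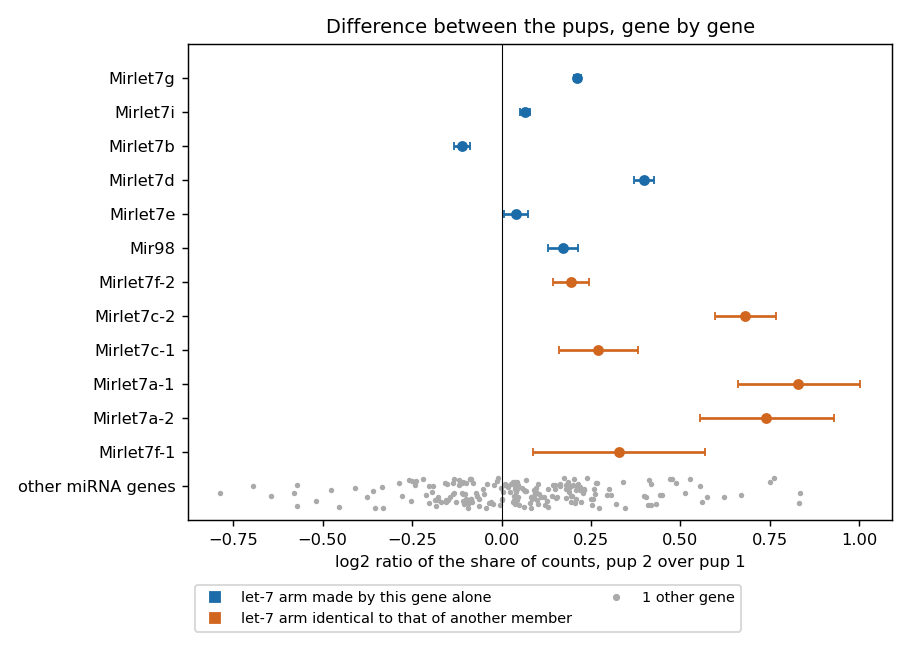
Log2 ratio of each gene's share of counts, pup 2 over pup 1, with exact 95% intervals for counting error, for the 12 let-7 genes and, in the bottom row, for other genes with at least as many counts as the lowest member. Points right of 0 are higher in pup 2; Mirlet7b is the 1 member left of 0, at -0.11, and Mirlet7a-1 is farthest right, at 0.83.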

How the data were processed

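Each deposited table holds 1 library as raw read counts of miRNA genes in 3 unnamed columns, taken from their values as either strand, the gene's own strand and the opposite strand. The authors used mm10 with GENCODE M4, per the file notes; an aligner or counter is not named in what was used here. Read classes that name no gene stayed out of totals. Of 1973 genes, 1894 were named by GENCODE M21, also on mm10, by Ensembl identifier; the 79 others had at most 2 counts.

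Own-strand counts were divided by the own-strand total and multiplied by 1000000 (CPM). Counts at Mirlet7e and Mirlet7f-1 are not in that total. These 2 were read on the opposite strand after earlier results had shown counts there. All 12 members had a RefSeq hairpin, and 11 a listed let-7 arm; that of Mirlet7a-2 was found by its sequence in the hairpin. Likely shared transcripts were sought within 10 kb on the same strand.

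The pups were compared by an exact two-sided binomial test where a gene's counts summed to 10 or more, adjusted by Benjamini-Hochberg (threshold 0.05); log2 ratios of single genes had 0.5 added to each count. The test was checked on simulated data with known fold changes, larger than those of the members, and with counting error alone. Its totals there came from the genes set to be unchanged. The check therefore does not cover small ratios or variation between libraries. edgeR's quasi-likelihood test could not be used with 1 library per pup. A count of 0 allows up to 3 counts. For the order of levels, SDs were pooled in 4 classes of abundance over genes with at least 10 counts in both pups. The text names all 12 members, miRNA genes within 10 kb and other mouse miRNAs with the seed. It also names the genes next to the 3 highest members in level. Mir7j, Mir125b-1, Mir125b-2 and the tissue markers were named beside these. Members, lists and tests were chosen with earlier results of these data known. Tests ran in Python 3.11.15 (scipy 1.17.1, pandas 2.3.3, numpy 2.4.6), and the TMM and DESeq2 scalings, used as alternatives, in R 4.3.3 with edgeR 4.0.16 and DESeq2 1.42.0. Figures used matplotlib 3.10.9.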

Additional observations from a re-analysis of the deposited data

How the results depend on the processing

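The family share of 9.67% became 11.8% without Mir10b in the total, 5.06% without Mirlet7g and 4.90% as a share of all reads, each by construction, and lay between 9.16% and 10.2% with 1 pup left out. The share from genes with an arm of their own was 93.3% without Mirlet7g, and between 96.3% and 96.8% with 1 pup left out. If genes are grouped by a shared stretch of 18 bases between precursors, a length chosen after seeing the data, it became 13.1%, because Mirlet7g shares such a stretch with Mirlet7i and Mirlet7b with Mirlet7c-2; stretches of 22 and 20 bases gave 96.5%. The log2 ratio of the family's counts between the pups was 0.13 without Mir10b in the totals, 0.11 with TMM scaling, 0.11 with DESeq2 size factors and 0.10 without Mirlet7g. Of 12 member calls, 11 remained without Mir10b in the totals, with TMM scaling, with DESeq2 size factors and with no count minimum, with Mirlet7e lost each time, and 3 where a 1.5-fold difference was also required. With DESeq2 size factors the log2 ratio of Mirlet7e became -0.00031. Either scaling moved the median log2 ratio of all tested genes from 0.04 to 0.00. Of the 11 steps between members, 10 exceeded the spread between pups and 8 did so with the SD pooled over the 12 members alone, where Mirlet7d over Mirlet7e and Mir98 over Mirlet7f-2 were lost; the other alternatives gave 10. No paired analysis was possible because there was 1 group. At 350 and 245 counts in pup 2 and pup 1, Mirlet7f-1 was the member most limited by depth.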
